A study of Caenorhabditis elegans with 10 samples.

Results

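The genes described here are 8 host lysozyme genes, lys-1, lys-2, lys-4, lys-5, lys-7, lys-8, ilys-2 and ilys-3. They were chosen as a list of gene names, with earlier results of these data known, and matched by WormBase name to the table of gene counts. All 8 were found among the 46756 genes listed. The other 8 genes that carry a lys or ilys name (lys-3, lys-6, lys-9, lys-10, ilys-1, ilys-4, ilys-5 and ilys-6) are set beside them.

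The libraries came from whole hermaphrodite Caenorhabditis elegans at the L1 larval stage, 5 of pbrm-1(TS-KO) and 5 of pbrm-1(control), numbered 1, 4, 5, 6 and 7 in each strain. pbrm-1 encodes a subunit of PBAF, a SWI/SNF complex that remodels chromatin. Both strains carried pbrm-1::GFP(flox), an allele in which the last exons and a GFP tag lie between loxP sites, together with an unc-119 rescue marker. pbrm-1(TS-KO) (strain RA678) also carried an insertion that makes a GFP nanobody joined to ZIF-1 and Cre from the hnd-1 promoter, so that the gene was cut and the tagged protein degraded in mesoderm, mainly body wall muscle, the M mesoblast and the somatic gonad precursors. pbrm-1(control) (strain RA685) carried an hnd-1 promoter insertion that makes ZIF-1 alone and kept PBRM-1 in all tissues. Each strain holds its own insertion, so an effect of the insertion cannot be told apart from the loss of pbrm-1. A few larvae of the knockout cultures lack pbrm-1 in every tissue after recombination in the mother. Parents were grown at 20 °C, and the larvae hatched overnight in sterile M9 medium with no bacteria, so the lysozyme levels are those of unfed animals. Both strains were raised in parallel on each of 5 different days. The hnd-1 promoter is not a driver for the intestine, and RNA of whole larvae cannot tell fewer cells of a type apart from less RNA per cell.

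Lysozymes break the sugar backbone of peptidoglycan, the wall of bacteria. C. elegans has a protist type, encoded by the lys genes, and an invertebrate type, encoded by the ilys genes, and makes most of them in the intestine and pharynx, where they serve both digestion of bacterial food and defence against pathogens. Several are used as readouts of immune signalling through the p38 kinase PMK-1, the FOXO factor DAF-16 and the TGF-beta ligand DBL-1.

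The libraries held 35922561 to 46553938 counts in pbrm-1(TS-KO) and 36354418 to 45126931 in pbrm-1(control). Of 16817 genes tested with edgeR's quasi-likelihood test, 720 fell and 579 rose in the knockout at an adjusted p of at most 0.05 (Benjamini-Hochberg over all genes tested), and the median log2 fold change of all genes was 0.00045. pbrm-1 itself stood at 247 ± 11.5 CPM (counts per 1e6 counts of a library; SD, n = 5) against 263 ± 23.9, with a log2 fold change of -0.09 and an adjusted p of 0.433. Its whole-gene count is no check of the labels, since most cells keep the gene and the cut removes only the last exons. At the level of exons, the paper reports that most of these last exons were significantly lower in the knockout, in RNA of whole larvae. The values used here are counts per gene. Between libraries of a strain, the mean squared difference per gene in units of counting noise was 3.46 to 43.0. pbrm-1(TS-KO) replicates 4 and 7 lay 35.4 to 43.0 from replicates 1, 5 and 6, which lay 3.46 to 11.2 from each other. pbrm-1(control) replicate 1 lay 39.2 to 43.0 and replicate 5 lay 28.7 to 43.0 from the other libraries of that strain, while replicates 4, 6 and 7 lay 9.96 to 12.9 from each other. The spread over these libraries is the error behind every test, and results that move without them are given below with the values both ways.

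Of the lysozyme genes, 3 fell in pbrm-1(TS-KO), lys-7 by a log2 fold change of -1.51, lys-1 by -0.81 and lys-8 by -0.20, and none rose. Those were 3 of the 7 genes of the list that passed the filter on low counts, and the median log2 fold change over these 7 was -0.20. Over all genes tested, 7.72% passed in either direction, 4.28% as lower and 3.44% as higher. Since the list was chosen with earlier results of these data known, these shares are set side by side as a description. The CPM of the strains did not overlap for the same 3 genes. Every knockout library was below every control library for 4.91% of all genes tested, and above for 4.35%. lys-2, lys-4, lys-5 and ilys-3 did not pass the test, and ilys-2 had too few counts to be tested. Between libraries of the same number, lys-1, lys-7 and lys-8 were lower in the knockout in 5 of 5 pairs, which follows from the lack of overlap. The genes that did not pass were mixed: lys-2 and ilys-3 were lower in 3 pairs, lys-5 in 2 and lys-4 in 1.

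**Figure D1:**
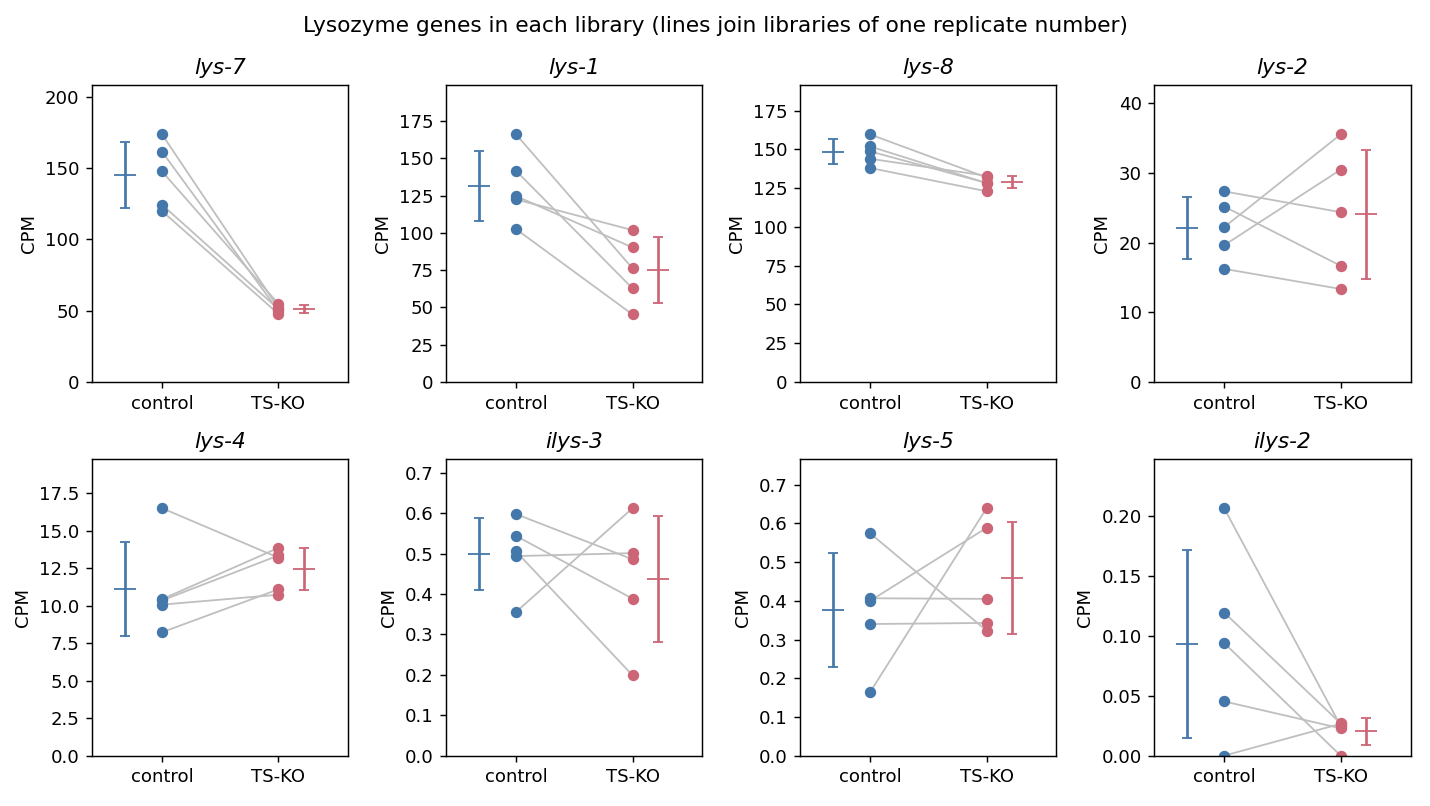
CPM of the 8 lysozyme genes in each library of pbrm-1(control) (blue) and pbrm-1(TS-KO) (red), on linear axes from 0 that differ between panels. Points are libraries, grey lines join libraries of the same replicate number, and bars show the mean and SD of 5 libraries. The strains separate for lys-7 (47.6 to 54.7 against 120 to 174 CPM), lys-1 and lys-8, and overlap for the other 5.

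lys-7 encodes a protist-type lysozyme of the intestine that pathogens and DAF-16 are known to raise. It lies on the minus strand of chromosome V from 3481432 to 3482600 (WBcel235), a protein-coding gene of 3 exons and 902 exon bases. In pbrm-1(TS-KO) replicates 1, 4, 5, 6 and 7 it stood at 51.0, 47.6, 49.7, 51.8 and 54.7 CPM. In the control libraries of the same numbers it stood at 124, 120, 161, 174 and 148 CPM. Every knockout library was far below every control library, and the knockout libraries varied less among themselves than the control libraries did (a coefficient of variation of 5.11% against 15.97%). The means were 51.0 ± 2.61 and 145 ± 23.2 CPM (SD, n = 5), so that lys-7 kept 35.1% of its control level, with a log2 fold change of -1.51 (SE 0.0991) and an adjusted p of 1.27e-05 in edgeR. The 5 differences within a replicate number were -1.28, -1.33, -1.70, -1.74 and -1.43 on the log2 scale, all lower in the knockout. By p-value lys-7 ranked 8 and by size of change 218 of the 16817 genes. It passed in all 15 fits that left out a library or both libraries of a number, with adjusted p from 1.8e-05 to 0.000364, and with pbrm-1(TS-KO) replicates 4 and 7 left out together its log2 fold change was -1.52 (adjusted p 0.000373). The genes on either side, srbc-30 and srbc-33, are chemoreceptor genes with 0 to 11 counts in any library, and no annotated gene overlaps lys-7.

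lys-1 encodes another protist-type lysozyme of the intestine that is known to rise on infection. It lies on the plus strand of chromosome V from 10277904 to 10279056, with 2 exons and 959 exon bases. In pbrm-1(TS-KO) replicates 1, 4, 5, 6 and 7 it stood at 76.2, 45.2, 102, 90.2 and 62.7 CPM. The control libraries of the same numbers stood at 166, 103, 122.4, 125 and 142 CPM. The strains did not overlap, but only narrowly, since the highest knockout library (replicate 5, 101.8 CPM) lay just under the lowest control library (replicate 4, 102.5 CPM). The lowest knockout values were in replicates 4 and 7, the libraries that stood apart from the rest of the strain, and the highest control value was in replicate 1, which also stood apart. The means were 75.2 ± 22.3 and 131 ± 23.8 CPM (SD, n = 5), or 57.2% of the control level, with a log2 fold change of -0.81 (SE 0.198) and an adjusted p of 0.0313 in edgeR. Within replicate numbers the differences were -1.12, -1.18, -0.27, -0.47 and -1.17, lower in 5 of 5 pairs and larger for numbers 1, 4 and 7 than for 5 and 6. The call was lost in 9 of the 15 leave-out fits: without control replicate 1, 5, 6 or 7, without knockout replicate 1 or 7, and without number 1, 6 or 7 in both strains (log2 fold change -0.96 to -0.67 and adjusted p 0.0242 to 0.114 over the 15). With knockout replicates 4 and 7 left out together the log2 fold change was -0.56 (adjusted p 0.044), and with numbers 4 and 7 left out of both strains it was -0.62 (adjusted p 0.0626). With all 10 libraries, edgeR with the replicate number as a block gave -0.84 (adjusted p 0.012). DESeq2 without the block gave -0.80 (adjusted p 0.000784).

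lys-8, a protist-type lysozyme gene known as a target of DBL-1 signalling, had the smallest change and the smallest spread of the 3 genes that fell. It lies on the plus strand of chromosome II from 5586178 to 5587651, with 3 exons and 970 exon bases. In pbrm-1(TS-KO) replicates 1, 4, 5, 6 and 7 it stood at 133, 123, 128, 132 and 128 CPM. In the control it stood at 144, 138, 149, 160 and 152 CPM. Every knockout library was below every control library, and the coefficient of variation was 3.05% and 5.50%. The means were 129 ± 3.93 and 149 ± 8.17 CPM (SD, n = 5), or 86.8% of the control level, with a log2 fold change of -0.20 (SE 0.0459) and an adjusted p of 0.0217 in edgeR. The differences within replicate numbers were small and all lower, at -0.11, -0.17, -0.21, -0.28 and -0.24. The call lay near its threshold: it was lost in 8 of 15 leave-out fits (adjusted p 0.0171 to 0.101), namely without control replicate 6 or 7, without knockout replicate 4 or 5, and without number 1, 5, 6 or 7 in both strains, and also without the filter on low counts (adjusted p 0.0511) or without knockout replicates 4 and 7 together (adjusted p 0.0567). C17G10.13, on the opposite strand, shares 38 of the 970 exon bases of lys-8. Whether the counting used strand is not given in the sources used here, and C17G10.13 had 386 to 649 counts with a log2 fold change of -0.10 (adjusted p 0.624).

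**Figure D2:**
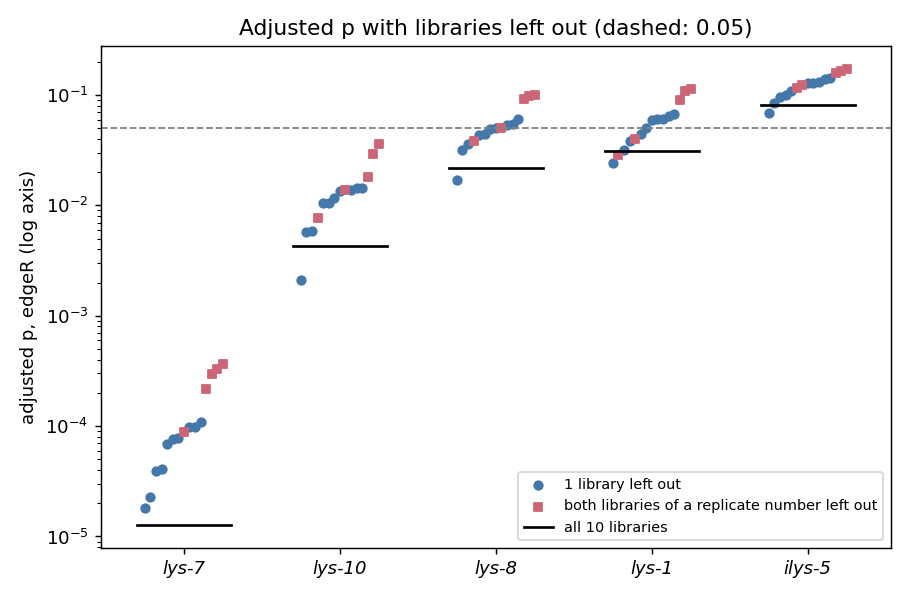
Adjusted p of 5 lysozyme genes in edgeR (log axis, lower is a smaller p) with all 10 libraries (bars), with 1 library left out (circles) and with both libraries of a replicate number left out (squares). lys-7 and lys-10 stayed below the dashed 0.05 line in all 15 fits, lys-1 crossed it in 9 and lys-8 in 8, and ilys-5 stayed above it in all 15.

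lys-2 is the genomic neighbour of lys-1, on chromosome V from 10280307 to 10281474 on the minus strand, so that the 3' ends of the genes face each other across 1250 bases. It has been linked to PMK-1 signalling. In pbrm-1(TS-KO) replicates 1, 4, 5, 6 and 7 it stood at 16.7, 13.3, 35.5, 30.5 and 24.4 CPM, and in the control at 25.2, 16.2, 22.2, 19.6 and 27.4 CPM. The strains overlapped throughout, and the knockout values covered both the lowest and the highest of the 10 libraries. Means of 24.1 ± 9.25 and 22.1 ± 4.41 CPM gave a log2 fold change of 0.12 (SE 0.247, adjusted p 0.804 in edgeR). The sign of that value turned without number 5 or 6 in both strains, or without knockout replicate 5. Within replicate numbers lys-2 was lower for 1, 4 and 7 (-0.59, -0.28 and -0.17) and higher for 5 and 6 (0.68 and 0.63), the same numbers in which lys-1 fell least.

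The level of lys-1 relative to lys-2 was compared within each library, after the values of both genes were seen. In pbrm-1(TS-KO) the ratio of lys-1 to lys-2 was 2.57 to 4.56 and in pbrm-1(control) 5.17 to 6.58, with no overlap. The mean log2 ratio differed by -0.90. It was lower in 5 of 5 pairs, as the lack of overlap requires (-0.53, -0.90, -0.94, -1.10 and -1.01). Another 2 ratios were chosen in the same way. All 3 are given as descriptions without p-values, since ratios picked on their values cannot be tested on the same values. lys-7 to lys-8 was 0.384 to 0.427 in the knockout and 0.863 to 1.09 in the control (log2 difference -1.29). lys-1 to lys-8 was 0.368 to 0.793 against 0.743 to 1.15 (log2 difference -0.64), which overlap.

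**Figure D3:**
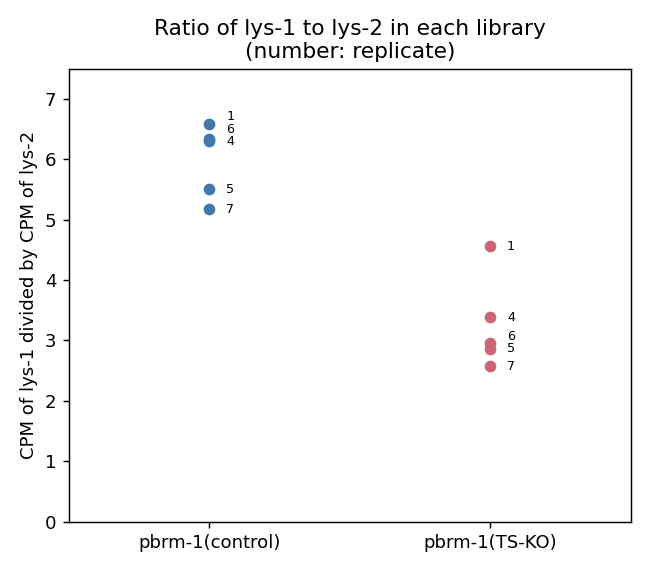
Ratio of the CPM of lys-1 to that of lys-2 in each library (vertical axis from 0, no unit), with the replicate number beside each point. The 5 libraries of pbrm-1(control) lie between 5.17 and 6.58 and the 5 of pbrm-1(TS-KO) between 2.57 and 4.56.

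lys-4 and lys-5 lie next to each other on the minus strand of chromosome IV, lys-4 from 11621429 to 11623174 and lys-5 from 11624252 to 11625582, 1077 bases apart and each with 2 exons. Both encode protist-type lysozymes. lys-4 stood at 13.2, 10.7, 13.9, 13.3 and 11.1 CPM in pbrm-1(TS-KO) replicates 1, 4, 5, 6 and 7 and at 16.5, 10.07, 10.4, 10.3 and 8.23 CPM in the control. Control replicate 1 held the highest value of all 10, while the other 4 control libraries lay below every knockout library. edgeR gave a log2 fold change of 0.16 (SE 0.164, adjusted p 0.588), with the knockout higher in 4 of 5 pairs. It was 0.35 without control replicate 1 (adjusted p 0.0689). lys-5 was near the limit of detection, with 13 to 27 counts per library in the knockout and 6 to 25 in the control. Its means of 0.460 ± 0.145 and 0.377 ± 0.147 CPM gave a log2 fold change of 0.27 (SE 0.311, adjusted p 0.634), and its sign turned without number 6 in both strains.

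ilys-3 and ilys-2 are invertebrate-type genes that stand in a row with ilys-1 on the plus strand of chromosome IV, ilys-3 from 2464456 to 2465443 and ilys-2 from 2467678 to 2468879. ilys-3 is known from work on fed worms as a lysozyme of the pharynx and intestine that helps to break up ingested bacteria. It had 8 to 23 counts per library in pbrm-1(TS-KO) and 13 to 25 in pbrm-1(control), or 0.438 ± 0.155 and 0.499 ± 0.0900 CPM. The libraries of the strains overlapped. A log2 fold change of -0.20 (SE 0.267) had an adjusted p of 0.692. ilys-2 had 1, 0, 1, 1 and 1 counts in knockout replicates 1, 4, 5, 6 and 7 and 9, 4, 5, 0 and 2 in the control, 4 in all against 20. A library of each strain had no count, so the strains overlapped, and the two-sided exact permutation test on log2 of CPM plus 0.5 gave p = 0.0952. A difference was not detectable for either gene at this depth.

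Of the other 8 lysozyme genes, 5 passed the filter and 1 passed the test. lys-10, a gene of 1 exon on chromosome IV from 8332826 to 8333518, had 12, 12, 13, 15 and 16 counts in pbrm-1(TS-KO) replicates 1, 4, 5, 6 and 7 and 80, 51, 27, 47 and 35 in pbrm-1(control). Every knockout library was below every control library (2.85-fold from lowest to highest control library). The means were 0.335 ± 0.0550 and 1.15 ± 0.468 CPM (SD, n = 5), or 29.1% of the control level, with a log2 fold change of -1.78 (SE 0.289) and an adjusted p of 0.00427 in edgeR. All 15 leave-out fits kept the call, while leaving out numbers 4 and 7 of both strains gave -1.84 with an adjusted p of 0.0539. lys-10 stands between the histone genes his-30 and his-31, which had 0 to 11 counts in any of these libraries of polyA RNA.

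ilys-5, an invertebrate-type gene on the minus strand of the X chromosome from 6533490 to 6536840, was lower in the knockout in every pair but did not pass. It stood at 43.8, 22.5, 41.0, 41.2 and 23.5 CPM in pbrm-1(TS-KO) replicates 1, 4, 5, 6 and 7 and at 62.0, 42.7, 53.0, 54.7 and 49.2 CPM in the control. Replicates 4 and 7 of the knockout were again the lowest, and the strains overlapped only through knockout replicate 1 and control replicate 4. The log2 fold change was -0.61 (SE 0.194) with an adjusted p of 0.0816 in edgeR. With the replicate number as a block it was -0.65 with an adjusted p of 0.0106, so the pairing changed the call, as did DESeq2 without the block (-0.60, adjusted p 0.0177). Leaving out numbers 4 and 7 of both strains gave -0.42 (adjusted p 0.0325), and leaving out knockout replicates 4 and 7 alone gave -0.32 (adjusted p 0.0816).

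The remaining genes did not pass. lys-3, which follows lys-2 on chromosome V after 625 bases, was at 7.33 ± 1.09 and 8.89 ± 1.30 CPM (log2 fold change -0.28, adjusted p 0.204), lower in 5 of 5 pairs. ilys-4 was at 16.7 ± 3.06 and 17.1 ± 1.45 CPM (log2 fold change -0.04, adjusted p 0.884), and the sign of this value depended on the libraries kept. lys-6, next to lys-5, had 7 to 21 counts per library (log2 fold change 0.20, adjusted p 0.762). lys-9, ilys-1 and ilys-6 had at most 3 counts in any library and were not tested. Over all 16 genes of both name classes, 12 were tested, 4 were lower, none was higher and the median log2 fold change was -0.20. The shares of all genes tested were 4.28% lower and 3.44% higher.

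**Figure D4:**
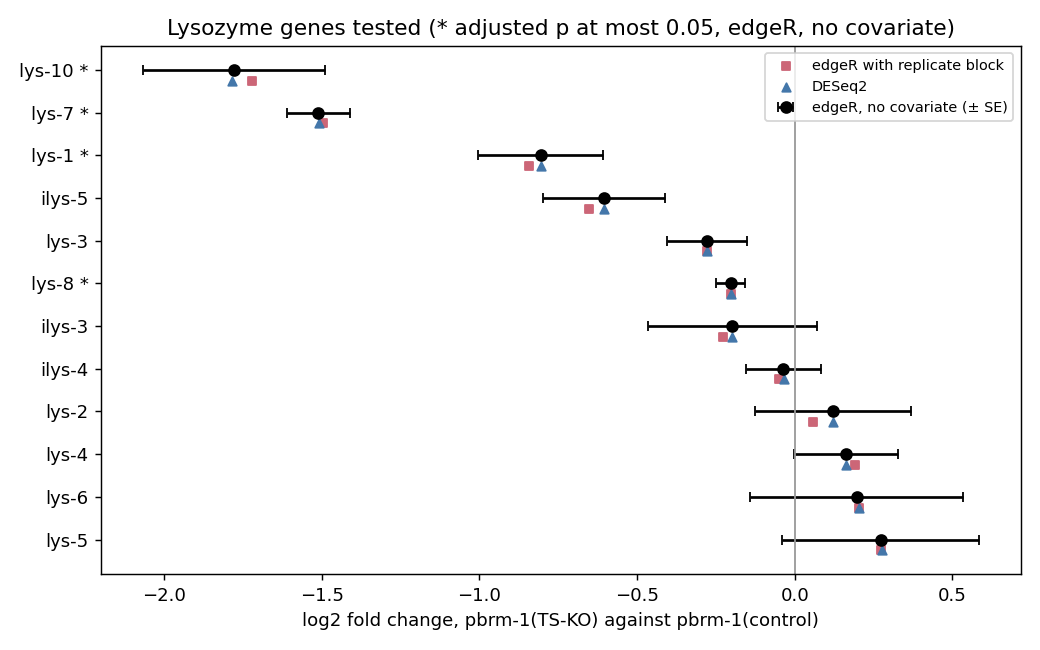
log2 fold change of the 12 lysozyme genes tested, pbrm-1(TS-KO) against pbrm-1(control), negative where lower in the knockout. Black points are edgeR without a covariate with the SE, red squares edgeR with the replicate number as a block, and blue triangles DESeq2. The genes marked with a star (lys-10, lys-7, lys-1 and lys-8) all lie below 0, from -1.78 to -0.20.

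By position, the calls were scattered. On chromosome V, lys-1 fell while lys-2 and lys-3 beside it did not pass. On chromosome IV, none of lys-4, lys-5 and lys-6 passed, nor did ilys-3 of the ilys-3, ilys-2 and ilys-1 row. lys-7, lys-8 and lys-10, the other genes that fell, have no lysozyme gene next to them.

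The order of the levels, compared per kilobase of annotated exon, changed at the top. In pbrm-1(control), lys-7 (161 CPM per kilobase), lys-8 (153) and lys-1 (137) were the highest, and their ranges over the 5 libraries overlapped, so that they did not differ beyond their spread. In pbrm-1(TS-KO), lys-8 (133 CPM per kilobase) stood clear of lys-1 (78.5) and lys-7 (56.5), whose ranges overlapped. ilys-5 had the next mean in both strains, at 40.8 and 26.8 CPM per kilobase, clear of the top 3 in both. In the knockout its range overlapped that of lys-2 (25.9), so these did not differ beyond their spread. lys-2, ilys-4 and lys-4 followed in that order with ranges that overlapped from gene to gene, then lys-3, and lys-10 (1.66 and 0.484 CPM per kilobase) and the rest were lower still. lys-10 dropped from rank 9 in the control to rank 11 in the knockout, among genes whose ranges overlapped. Summed over the 8 listed genes, the level was 293 ± 35.0 CPM in the knockout (241 to 330) and 460 ± 40.9 in the control (388 to 488), with no overlap. lys-7 made up 17.6% of this sum in the knockout and 31.6% in the control, while lys-8 made up 44.5% and 32.4% and lys-1 25.3% and 28.5%.

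**Figure D5:**
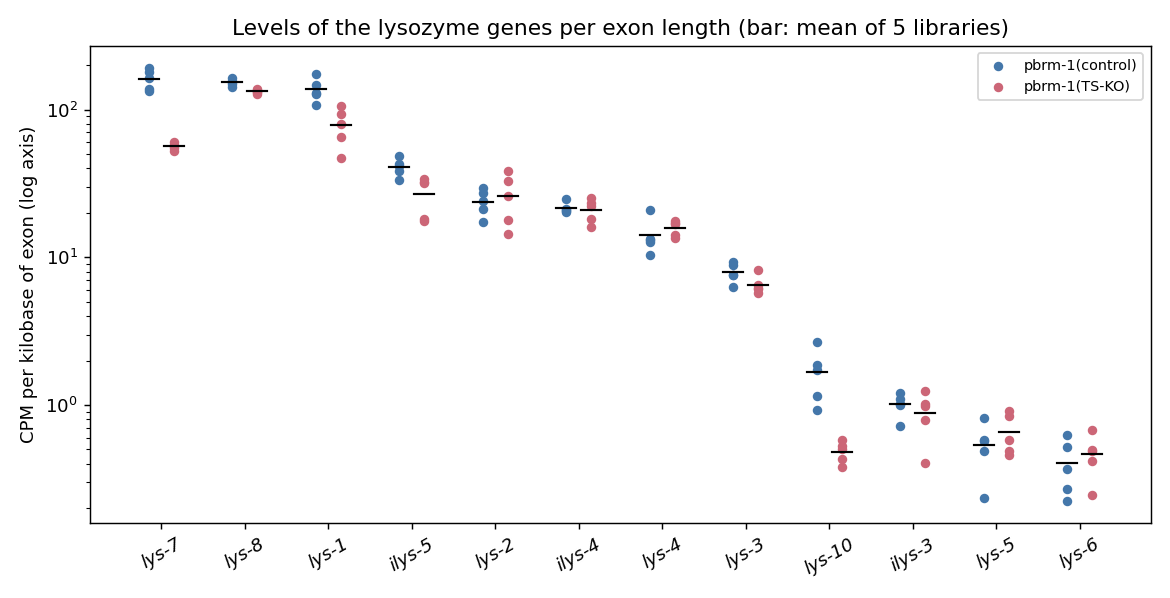
CPM per kilobase of exon (log axis) of the 12 lysozyme genes tested, ordered by their mean in pbrm-1(control), with each library as a point (blue for control, red for pbrm-1(TS-KO)) and the mean of 5 libraries as a bar. lys-7, lys-8 and lys-1 lie together at 137 to 161 in the control, and in the knockout lys-7 lies at 56.5, lys-1 at 78.5 and lys-8 at 133.

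The genes whose profile over the 10 libraries was most like that of each called lysozyme gene were found by the root mean square difference of centred log2 CPM over 16816 other genes. The profiles hold the strain difference, so fold changes like that of the lysozyme gene follow from the way of choosing. For lys-7 they were F49F1.5 (0.141), C14C6.5 (0.148) and C08E3.1 (0.186), with log2 fold changes of -1.39, -1.39 and -1.37. C14C6.5 lies on chromosome V as lys-7 does and was at a like level, 51.7 against 135 CPM. For lys-1 they were otpl-1 (0.147), oac-31 (0.176) and R13D7.2 (0.182), of which otpl-1 did not pass in edgeR (adjusted p 0.0702). For lys-8 they were Y69A2AR.22 (0.041), W09D6.5 (0.0421) and Y65B4A.2 (0.0428). Y69A2AR.22 (adjusted p 0.0841) and W09D6.5 (0.0695) did not pass in edgeR. None of the genes found in this way is a lysozyme gene.

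Among antibacterial genes of other families, a few were called in each direction. The 41 genes were those named spp (saposin-like caenopores, which pierce bacterial membranes), abf (defensin-like peptides) or thn (thaumatin-like proteins). Of these, 30 were tested, 2 were lower, 3 were higher and the median log2 fold change was 0.02. That was 16.7% called, against 7.72% of all genes tested (4.28% lower and 3.44% higher). spp-1, a caenopore gene, rose from 85.5 ± 16.6 to 128 ± 8.77 CPM (log2 fold change 0.58, adjusted p 0.0126). spp-11 (1.42, adjusted p 0.00239) and spp-20 (1.05, adjusted p 0.00473) also rose, at levels of at most 2.54 CPM in the strain means. abf-5 fell (-0.31, adjusted p 0.00574), as did thn-2 (-1.82, adjusted p 0.0491) at under 1 CPM.

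The pathways known to act on lysozyme genes were measured in the same fit. In it, 7.72% of all genes tested passed, 4.28% as lower and 3.44% as higher. Of 12 genes of the p38 pathway, sek-1, the kinase that activates PMK-1, was higher (0.24, adjusted p 0.0456), as was plc-3, a phospholipase C gene (0.27, adjusted p 0.0213). dkf-2, a protein kinase D gene, was lower (-0.25, adjusted p 0.0349), as was tpa-1, a protein kinase C gene (-0.17, adjusted p 0.0348), and the median was 0.00197. The list had 0 to 3 calls when 1 library or both of a number were left out, and 4 (3 lower, 1 higher) without knockout replicates 4 and 7. The 20 other regulators included daf-16, daf-2, dbl-1, the Smad gene sma-3, the GATA factor genes elt-2 and elt-7 and the TFEB gene hlh-30. Of these 20, 0 passed in edgeR, 0 passed in DESeq2 and 2 had an unadjusted p under 0.05 in edgeR. For comparison, 4050 of all 16817 genes tested had an unadjusted p under 0.05 in edgeR, and DESeq2 called 12%. Leaving out knockout replicates 4 and 7 gave 5 calls in this list. Of 8 tested genes other than lysozymes that DAF-16 is known to raise, ftn-1, a ferritin gene, rose (0.82, adjusted p 0.00239) and 7 did not pass. Among the 7, hsp-12.6, a small heat shock protein gene, had the largest value (1.15, adjusted p 0.156, above the control in 5 of 5 pairs), and sod-3 was at 0.07 (adjusted p 0.914). With knockout replicates 4 and 7 left out, 1 gene of the list was lower and 1 higher.

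Intestinal markers, of the tissue in which most lysozymes are made, were summed in each library. All 10 markers were detected and none was at 0. Their summed level was 3424 to 3707 CPM over the knockout libraries, above the 2819 to 3239 CPM of the control libraries, with no overlap. ifb-2, an intestinal intermediate filament gene (0.39, adjusted p 0.000845), and vha-6, a proton pump subunit gene of the intestinal surface (0.44, adjusted p 0.00363), were higher, and 0 were lower in edgeR. The shares of all genes tested were 3.44% higher and 4.28% lower. With the replicate block edgeR called 1 intestinal marker lower and 2 higher, and DESeq2 called 2 lower and 3 higher. ifb-2 and vha-6 were then left out, a choice made after their values were seen. The other 8 summed to 703 to 943 CPM in the knockout and 797 to 1176 in the control. These ranges overlap, with the knockout lower in 5 of 5 pairs. Leaving out 2 genes that had risen by itself moves the knockout sum toward lower. Among the 8 kept, elt-2, elt-7 and pept-1 had a log2 fold change above 0 (0.41, 0.08 and 0.05) and the other 5 below 0. The sum rested mostly on ifc-2 (350 and 391 CPM) and act-5 (161 and 212 CPM), which did not pass in edgeR. Of the 6 pharyngeal gland markers 0 passed in edgeR and 2 had an unadjusted p under 0.05, as did 4050 of all 16817 genes tested. The gland markers summed to 84.8 to 89.5 CPM in the knockout and 64.4 to 137 in the control. Pharyngeal muscle markers summed to 5311 to 5880 CPM in the knockout and 5549 to 6439 in the control. All 5 had a log2 fold change below 0, and pha-4, a factor that specifies the pharynx, passed as lower in edgeR (-0.20, adjusted p 0.0443). That call did not hold up to leaving out libraries. The pharyngeal muscle list had 1 call without knockout replicate 7 and 0 in every other leave-out fit. It also had 0 without the filter on low counts, and 2, both lower, in DESeq2 and in edgeR with the replicate block. Body wall muscle markers, of the main tissue in which pbrm-1 was removed, summed to 15385 to 18888 and 17102 to 18282 CPM, with unc-27 lower among 6 (-0.32, adjusted p 0.00664). The part of these markers in the lysozyme values was not tested.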

How the data were processed

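The authors sequenced polyA RNA as paired-end reads, trimmed and mapped the reads with STAR 2.5.2b (the assembly is written WBcel325, taken here as WBcel235), and deposited raw counts per gene from featureCounts of Subread 1.5.2. Strand use in counting is not given in the sources used here. All 10 columns were used and 0 were left out. Names, positions and exon lengths came from the WBcel235 annotation.

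Genes passing filterByExpr were tested with edgeR 4.0.16 in R 4.3.3 (TMM, quasi-likelihood F test, no covariate, Benjamini-Hochberg over 16817 genes, adjusted p at most 0.05), after the test was run on simulated counts with 200 changed genes. The simulated counts held no effect of day or replicate number, so that run does not cover such effects. CPM is after TMM, log2 CPM has a prior count of 2, and the SE is the log2 fold change over the root of F. The lists were described by counts and medians, with no set test. Alternatives were DESeq2 1.42.0, limma-voom with sample weights (limma 3.58.1), RLE factors, 2 other filters, the replicate number as a block, libraries left out in turn and TPM for the order of levels. The fits without replicates 4 and 7 and the 3 ratios were added after the data were seen. The members and lists were chosen with earlier results of these data known.

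Genes named were the 16 lysozyme genes, pbrm-1, up to 5 called genes of each list and the 3 nearest profiles of each called member. Others named (sod-3, hsp-12.6, gene neighbours and the examples of regulators) were chosen outside this rule, after their values were seen. Of 42 spp, abf and thn genes in the annotation, 41 were in the count table. A search of promoters for factor sites was planned and not analysed here.

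The replicate numbers pair the strains because, per the study's methods, both were reared in parallel on each day. Deviations from the strain means correlated at 0.505, 0.283, 0.124, -0.05 and 0.351 for numbers 1, 4, 5, 6 and 7 (median 0.283, against -0.10 between different numbers).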

Additional observations from a re-analysis of the deposited data

Results flagged for a closer look

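Among 24 sets of 5 libraries (12 lysozyme genes in each strain), 2 had a library far from the others by Dixon's test, where chance flags about 5% of sets, or 1 in 20. Both lay in pbrm-1(control) replicate 1. lys-4 stood at 16.5 CPM there, with a gap to the nearest library of 0.734 of the range, and ilys-4 stood at 19.6 CPM, with a gap of 0.766, both above the critical value of 0.71 for 5 libraries.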

How the results depend on the processing

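The number of listed lysozyme genes called, 3, was 2 to 3 under the other tests, scalings, filters and blocks, 1 to 3 with libraries left out (1 without control replicate 6 or 7 or without number 1, 6 or 7 of both strains), 2 without knockout replicates 4 and 7 and 1 without numbers 4 and 7 of both strains. lys-7 passed in all of these fits. The replicate block changed the call of ilys-5 and of no other lysozyme gene in edgeR (3 listed genes called, all lower). Genes called over the whole table were 1299, against 2010 in DESeq2, 2899 in limma-voom, 700 without numbers 4 and 7, 811 to 1150 without a knockout library, 839 to 1204 without a control library, and 781, 746, 529, 408 and 900 without number 1, 4, 5, 6 or 7 of both strains. The antibacterial list had 5 calls, 10 in limma-voom, 3 without numbers 4 and 7 and 3 to 6 with libraries left out. The p38 list had 4, 1 without the filter, 2 without numbers 4 and 7, 4 without knockout replicates 4 and 7 and 0 to 3 with single libraries or numbers left out. The other regulators had 0, 1 in DESeq2 with the block, 4 in limma-voom, 5 without knockout replicates 4 and 7, 1 without numbers 4 and 7 and 0 to 0 with libraries left out. The DAF-16 list had 1, and 2 without knockout replicates 4 and 7. The cause of these shifts was not tested.

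Some log2 fold changes near 0 turned sign. lys-2 was -0.058 to 0.27 without a knockout library (lowest without replicate 5), -0.060 without number 5 and -0.016 without number 6, lys-5 was -0.044 without number 6 and lys-6 was -0.14 without number 7. ilys-4 was 0.076 in limma-voom, -0.11 to 0.049 without a knockout library (above 0 without replicate 4 or 7), -0.054 to 0.022 without a control library (above 0 without replicate 1), 0.0024 without number 4, 0.030 without number 7, 0.14 without knockout replicates 4 and 7 and 0.099 without numbers 4 and 7. The order of levels did not change with TPM. Counts under 30 per library limit lys-5, lys-6, ilys-3 and ilys-2. They also limit lys-10, which had 12 to 16 counts in the knockout libraries and 27 to 80 in the control.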
